A study of Mus musculus with 15 samples.

Results

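Cell cycle genes were followed in kidney RNA of mice with and without telomerase, 14 days after a single injection of folic acid or of its vehicle. 43 genes were chosen by name: 12 act in DNA replication (S phase) and 31 in G2 and mitosis. 41 of them have a row among the 19602 genes of the deposited table, 12 replication genes and 29 G2 and mitosis genes; Bub1 and Aurkb were not analysed here. The libraries fall into 4 groups. They are third-generation (G3) Tert-/- mice given folic acid at 125 mg/kg (n = 4), G3 Tert-/- mice given 0.3 M NaHCO3 (n = 4), Tert+/+ mice given folic acid at the same dose (n = 3) and Tert+/+ mice given NaHCO3 (n = 4). All were injected intraperitoneally at 6 to 8 weeks of age, and labelled sexes are mixed in 3 groups and all female in Tert+/+ vehicle. Tert encodes the reverse transcriptase of telomerase, and breeding Tert-/- mice over generations shortens their telomeres. High doses of folic acid injure the tubules of the mouse kidney, and the labels call this dose low. The whole kidney was used after perfusion, so each value is an average over tubule, vessel, interstitial and blood cells. In such a sample, fewer cells of a type and less RNA per cell cannot be told apart.

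A dividing cell first copies its DNA and then separates the copies. The MCM helicase opens the double helix, PCNA clamps the polymerases to it, and ribonucleotide reductase (Rrm1, Rrm2) and thymidine kinase (Tk1) supply nucleotides. In G2 and mitosis, CDK1 with cyclin B drives entry, condensin and topoisomerase II shape the chromosomes, motor proteins build the spindle, the anaphase-promoting complex ends mitosis, and a contractile ring parts the daughter cells. In the adult kidney few cells cycle, and tubule cells re-enter the cycle after injury.

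Libraries held 5014684 to 6609307 reads (median 6091019). The deposited values are counts divided by 1 size factor per library, called normalised counts below, and most members lie at fewer than 100 of them. Tert itself had 3.00 to 10.7 normalised counts in G3 folic acid, 2.93 to 15.1 in G3 vehicle, 6.67 to 13.6 in Tert+/+ folic acid and 3.00 to 22.6 in Tert+/+ vehicle libraries. These overlapping ranges check nothing where the 3' end read here lies outside the deleted part, which the labels do not give. Xist and Y-linked RNA went against the labelled sex in several libraries, so libraries are described by their Y share, the summed Ddx3y, Kdm5d, Eif2s3y and Uty relative to the highest library. The share was 0.800, 0.0173, 0.771 and 0.315 in G3 folic acid libraries 1 to 4, at most 0.00873 in G3 vehicle, at most 0.0340 in Tert+/+ folic acid, and 0.986, 0.327, 0.942 and 1.0 in Tert+/+ vehicle libraries 1 to 4. G3 folic acid 4 and Tert+/+ vehicle 2 held both Xist and Y-linked RNA. Tert+/+ folic acid 1 stood apart by the non-coding transcript Gm42418, which took 23.0% of its reads against 4.85% to 8.15% elsewhere.

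The plot of all members by library shows where their RNA was high. Over the 29 G2 and mitosis genes, the mean log2(normalised count + 1) was 5.02, 5.07, 3.92 and 4.84 in G3 folic acid libraries 1 to 4, against 3.70, 3.35, 3.89 and 4.13 in G3 vehicle. It was 4.66, 3.94 and 3.77 in Tert+/+ folic acid, against 4.07, 3.84, 4.08 and 4.04 in Tert+/+ vehicle. Thus 3 of 4 G3 folic acid libraries and 1 of 3 Tert+/+ folic acid libraries stood above every vehicle library, and the folic acid and vehicle groups overlapped in both genotypes. The 12 replication genes had a mean of 5.17, 5.28, 4.60 and 5.21 in G3 folic acid, against 4.71, 4.23, 4.62 and 4.77 in G3 vehicle. They had 5.18, 4.52 and 4.71 in Tert+/+ folic acid, against 4.31, 4.65, 4.52 and 4.56 in Tert+/+ vehicle. The same 4 folic acid libraries were the highest of the 15 for both gene groups.

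**Figure D1:**
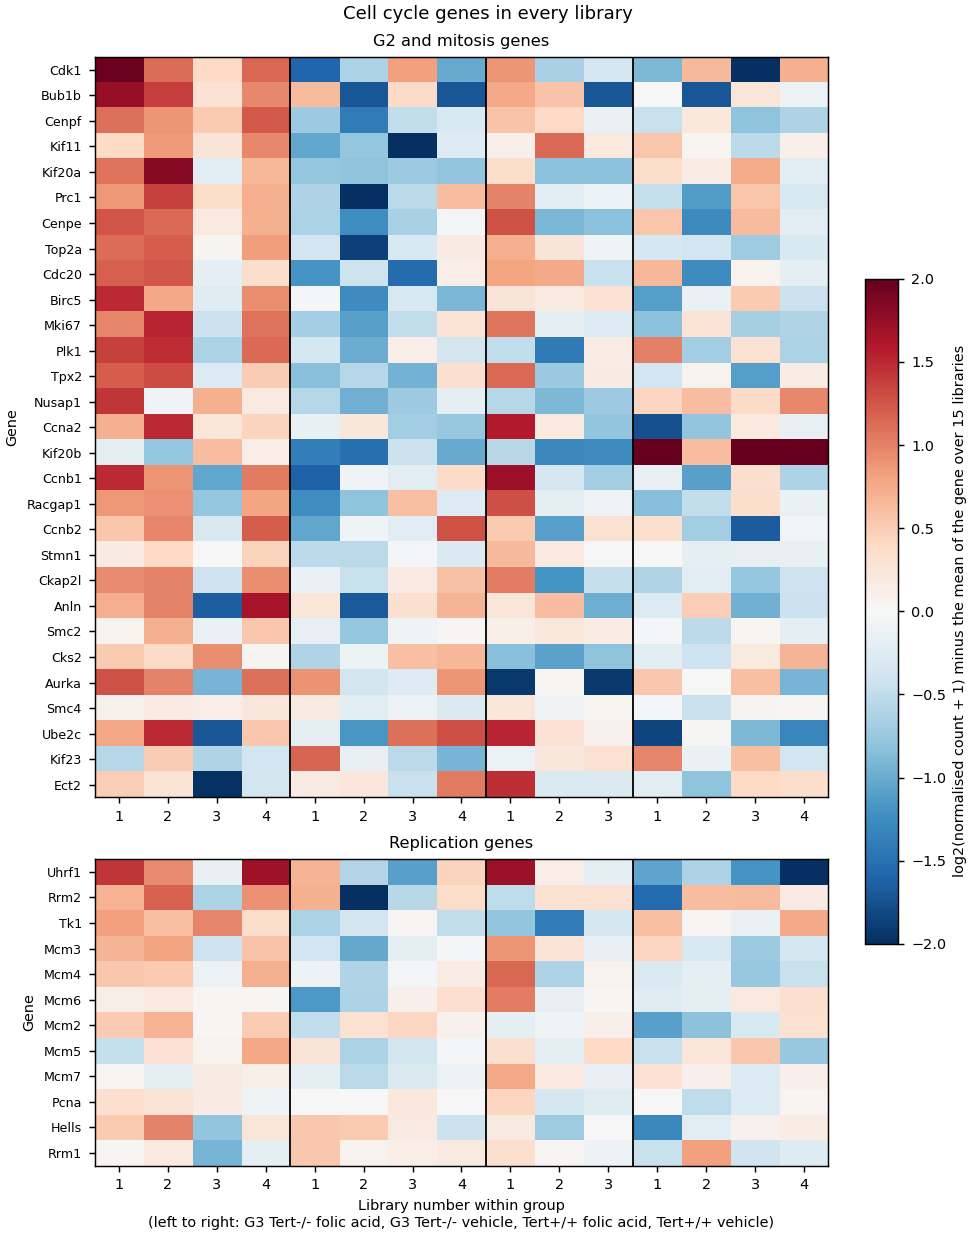
Each cell is the log2(normalised count + 1) of a gene in a library minus the mean of that gene over the 15 libraries; rows are genes, ordered by the difference between G3 folic acid and G3 vehicle, columns are libraries, and black lines part the 4 groups. G3 folic acid libraries 1, 2 and 4 and Tert+/+ folic acid 1 are red for most G2 and mitosis genes, while Kif20b is darkest in Tert+/+ vehicle.

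**Figure D2:**
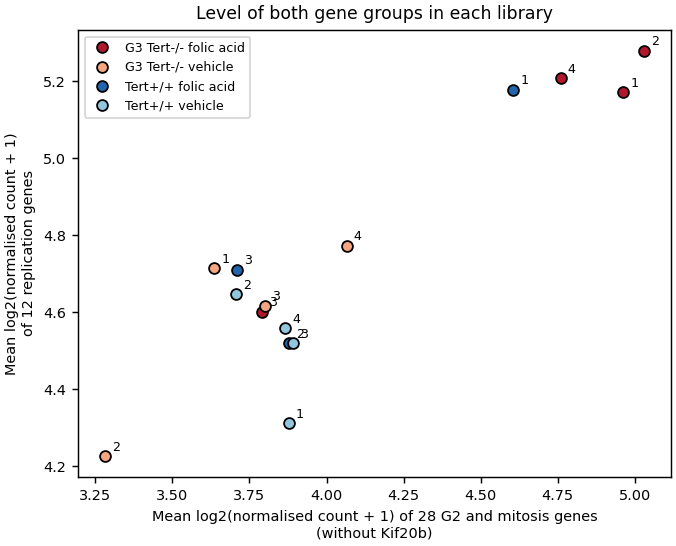
Each point is a library, numbered within its group; the horizontal axis is the mean log2(normalised count + 1) of 28 G2 and mitosis genes (without Kif20b) and the vertical axis that of the 12 replication genes. G3 folic acid 1, 2 and 4 and Tert+/+ folic acid 1 lie at the upper right, and G3 folic acid 3 lies among the vehicle libraries.

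G3 folic acid 3 was the lowest of its group for 25 of 29 G2 and mitosis genes and for 7 of 12 replication genes. Tert+/+ folic acid 1 was the highest of its group for 21 of 29 and 8 of 12. Other cell markers moved with these libraries. The summed normalised count of 15 macrophage markers was 5046, 4099, 1847 and 4547 in G3 folic acid 1 to 4, and 1060 to 1653 in G3 vehicle. Only G3 folic acid 3 came near the vehicle range. The sum was 5604, 1690 and 1601 in Tert+/+ folic acid 1 to 3, and 1317 to 1794 in Tert+/+ vehicle. The sum of 16 tubular injury markers, among them Havcr1 and Lcn2, was 9761, 8675, 4688 and 9965 in G3 folic acid, and 4096 to 4588 in G3 vehicle. It was 8234, 4671 and 4680 in Tert+/+ folic acid, and 3042 to 4024 in Tert+/+ vehicle. The 4 libraries with the highest mean log2 level of the G2 and mitosis genes were those with the highest macrophage and injury sums. The same 4 also had the highest sums of fibroblast and pericyte markers and of T and NK cell markers. By summed normalised counts of the 29 genes the order differed, with 1826 in G3 folic acid 2, the highest folic acid library, against 1907 in Tert+/+ vehicle 1 and 1715 in Tert+/+ vehicle 3. Without Kif20b, the kinesin that led these vehicle sums, the sum was 1547 to 1759 in those 4 folic acid libraries and at most 1160 in the others. No macrophage or tubular injury marker was at 0 in all libraries. Erythroid markers summed to 6536 to 22339 in G3 folic acid and 27618 to 44985 in G3 vehicle, and to 17795 to 23469 in Tert+/+ folic acid and 16764 to 35541 in Tert+/+ vehicle. The part of these cells in the results was not tested.

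In G3 kidneys most mitotic genes had higher values after folic acid, and 1 of them, Cenpf, passed the test. A gene was tested where at least 3 libraries had 10 or more normalised counts (14651 genes), with limma on log2(normalised count + 1) and Benjamini-Hochberg adjustment over all genes, and called at an adjusted p under 0.05. Because 1 is added, fold changes of low genes are understated. 36 members were tested. Ccna2, Bub1b, Aurka, Kif20a and Rrm2 were too low, and 10 G2 and mitosis genes and 1 replication gene (Uhrf1) entered only through folic acid libraries. Medians are therefore given over all 41 members. After folic acid in G3, 27 of 29 G2 and mitosis genes had a positive difference, with a median log2 difference of 1.07, against 49.0% positive and a median of -0.01 over all 19602 genes. Of the replication genes 11 of 12 were positive, with a median of 0.39. Without G3 folic acid 3 the medians were 1.28 and 0.47. Within the only series of title numbers that holds both groups (4 folic acid libraries and 1 vehicle library) they were 0.54 and 0.23, with 23 of 29 and 10 of 12 positive. 1 of 36 tested members was called higher, where 0.157% of all tested genes were. 17 of the 36 had an unadjusted p under 0.05, all higher (15 G2 and mitosis genes and 2 replication genes), where 7.47% of all tested genes were higher and 6.37% lower at that threshold. 6 members did not overlap between the groups, all higher in folic acid (Tk1, Cenpf, Nusap1, Kif11, Cenpe and Stmn1), where 3.98% of all tested genes were higher without overlap. Both counts include genes that entered only through folic acid libraries, such as Kif11, for which a higher value was favoured by the filter. With a filter on the mean over all libraries (at least 20), 19 members were tested. 10 of the 19 had an unadjusted p under 0.05, where 14.0% of all genes tested that way did.

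**Figure D3:**
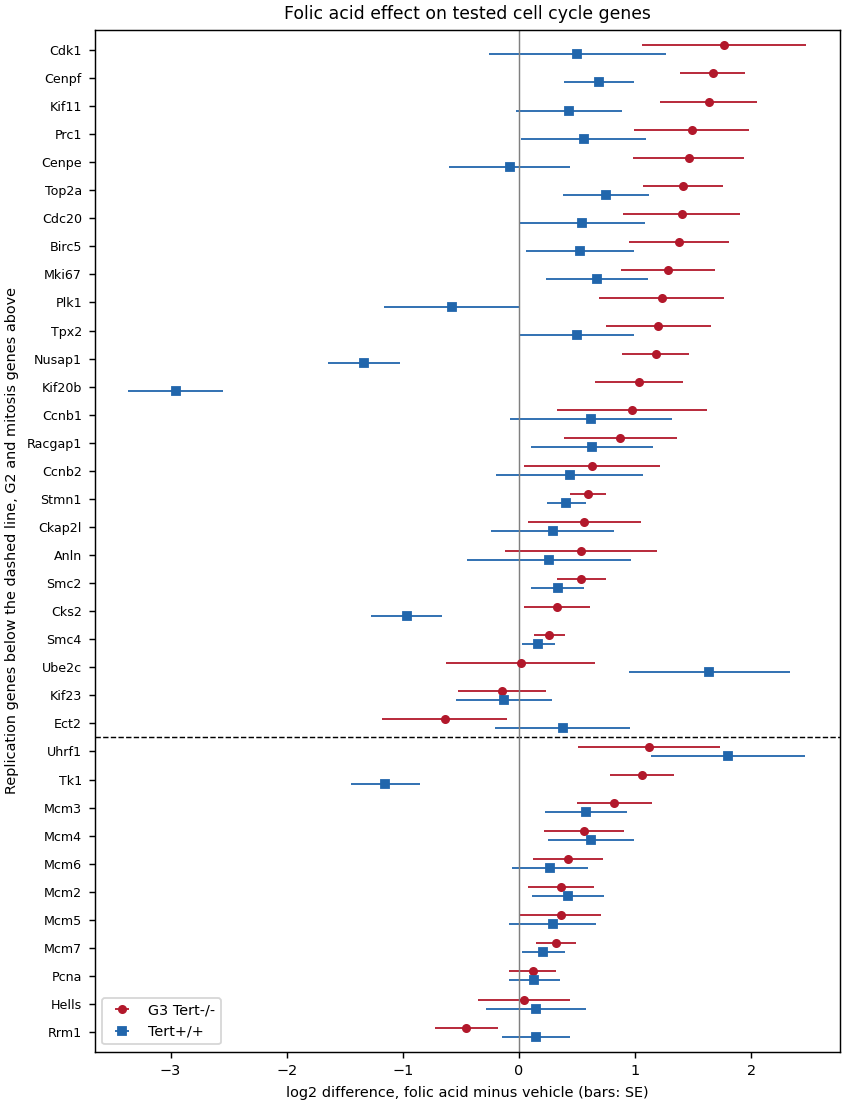
Points are log2 differences of folic acid minus vehicle for the 36 tested members, with bars of 1 SE from limma; red circles are G3 Tert-/- and blue squares Tert+/+. Most G2 and mitosis genes lie further right in G3, and Kif20b, Nusap1 and Tk1 lie on opposite sides of 0 in the 2 genotypes.

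The called gene was Cenpf, which encodes a large coiled-coil protein of the kinetochore that peaks in G2 and mitosis. Cenpf had 70.8, 61.1, 47.0 and 77.8 normalised counts in G3 folic acid libraries, against 19.3, 11.7, 22.7 and 26.1 in G3 vehicle libraries. Every folic acid library was above every vehicle library. The log2 difference was 1.67 ± 0.28 (SE), a 3.17-fold increase on that scale, with a limma adjusted p of 0.025. With the Y share as a term the difference was 1.97 (adjusted p = 0.036), and Cenpf was 1 of 3 genes called higher in the whole table, 0.0205% of those tested. In G3 folic acid 2, the 1 library of its group with hardly any Y-linked RNA, Cenpf was 1.62 log2 above the mean of G3 vehicle. The call was lost when G3 folic acid 1 or 4, or any 1 of the 4 G3 vehicle libraries, was left out, with the direction kept each time. It was also lost without the 2 libraries that hold both Xist and Y-linked RNA (log2 1.57 ± 0.28, adjusted p = 0.063). The title numbers fall into 3 series, and all 4 G3 folic acid libraries but 1 of 4 G3 vehicle libraries are in series 27. With a term for the series the Cenpf difference was 1.24 ± 0.44 (limma adjusted p = 1.0), and 0 members were called. 3 of 36 members had an unadjusted p under 0.05 in this fit, as had 615 of the 14651 tested genes. In Tert+/+ kidneys Cenpf had 48.8, 43.2 and 29.5 in folic acid, against 23.7, 37.9, 18.2 and 21.0 in vehicle. These groups overlap, at a log2 difference of 0.69 ± 0.30 (limma adjusted p = 0.177).

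Cenpe, a kinesin that links kinetochores to microtubules, had 59.9, 54.5, 28 and 40.3 normalised counts in G3 folic acid, against 15.3, 9.77, 15.1 and 24.1 in G3 vehicle. The G3 groups did not overlap, and the log2 difference was 1.46 ± 0.48 (limma adjusted p = 0.168). In Tert+/+ kidneys it had 60.1, 12.5 and 13.3 in folic acid, against 36.2, 9.48, 38.4 and 21.0 in vehicle. There folic acid 1 stood alone at the top and the other 2 libraries lay at the low end of the vehicle range. Bub1b, a spindle checkpoint kinase, was not tested and reached 9.99 at most, in G3 folic acid 1.

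Among the chromosome genes, Top2a, the topoisomerase that untangles the copied DNA, had 147, 156, 69.9 and 121 in G3 folic acid, against 50.8, 17.6, 54.1 and 75.2 in G3 vehicle. Only folic acid 3 fell within the vehicle range, and the log2 difference of 1.41 ± 0.35 missed the threshold (limma adjusted p = 0.074). In Tert+/+ kidneys Top2a had 111, 80.6 and 63.9 in folic acid, against 52.0, 51.2, 40.3 and 53.9 in vehicle, without overlap (log2 0.75 ± 0.37, limma adjusted p = 0.239). Mki67, the Ki-67 antigen that coats mitotic chromosomes and is used to count cycling cells, had 89.0, 130, 33.0 and 95.7 in G3 folic acid, against 27.5, 20.5, 31.4 and 54.1 in G3 vehicle. In Tert+/+ kidneys it had 95.3, 39.4 and 37.2 in folic acid, against 24.9, 54.0, 27.8 and 29 in vehicle. 3 of 4 G3 folic acid libraries and 1 of 3 Tert+/+ folic acid libraries exceeded every vehicle library. The log2 difference of Mki67 was 1.29 ± 0.41 in G3 (limma adjusted p = 0.151), and it was called there when G3 folic acid 3 was left out. Smc2 and Smc4, the condensin ATPases, differed by 0.54 and 0.26 log2 in G3, with overlapping groups.

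**Figure D4:**
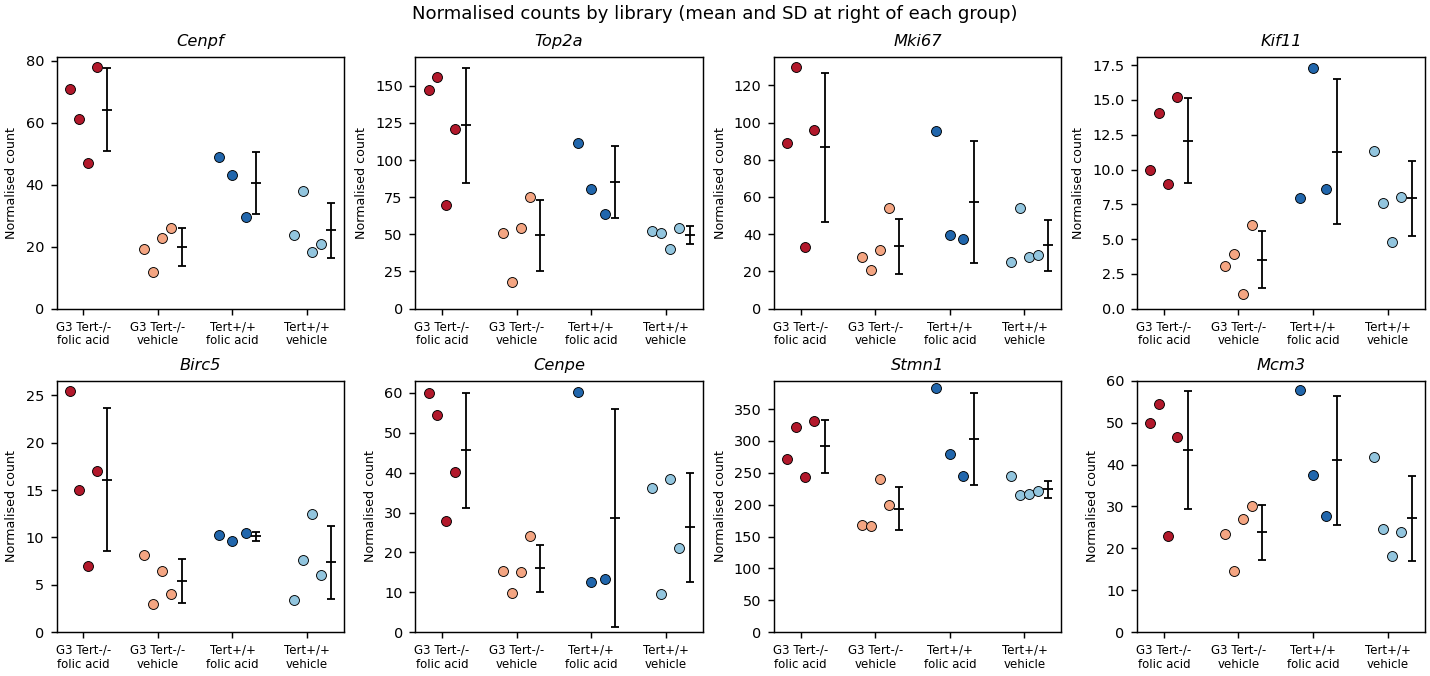
Normalised counts of 8 members in every library, by group, with the group mean and SD at the right of each group. Cenpf, Kif11, Cenpe and Stmn1 do not overlap between G3 folic acid and G3 vehicle; in the other 4 panels G3 folic acid 3 falls within the vehicle range.

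The spindle genes with the smallest p-values were Nusap1, Kif11 and Stmn1. Kif11, the motor that pushes spindle poles apart, had 9.99, 14.1, 8.99 and 15.2 in G3 folic acid, against 3.05, 3.91, 1.08 and 6.01 in G3 vehicle (log2 1.63 ± 0.42, limma adjusted p = 0.083). Each of these is a handful of reads, so counting error is large. Stmn1, which destabilises microtubules, had 272, 321, 243 and 331 in G3 folic acid, against 169, 167, 240 and 199 in G3 vehicle. The groups parted by a narrow margin, at a log2 difference of 0.59 ± 0.16 (limma adjusted p = 0.089). Stmn1 had 383, 279 and 245 in Tert+/+ folic acid, against 244, 215, 217 and 221 in vehicle, again just without overlap. Tpx2 and Prc1, which organise spindle microtubules, differed by 1.20 and 1.49 log2 in G3 (limma adjusted p of 0.232 and 0.175).

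Birc5, the survivin subunit of the chromosomal passenger complex, had 25.4, 15.0, 6.99 and 17.0 in G3 folic acid, against 8.14, 2.93, 6.49 and 4.01 in G3 vehicle (log2 1.37 ± 0.43, limma adjusted p = 0.150). 3 of the 4 folic acid libraries were above the vehicle range. Cdk1 and its cyclins Ccnb1 and Ccnb2 differed by 1.76, 0.97 and 0.63 log2 in G3, and Cdc20, which activates the anaphase-promoting complex, by 1.40. The kinase Plk1 differed by 1.23 log2. None of these 5 passed the test, their lowest adjusted p being 0.208. The members with a difference under 0 in G3 were 2 cytokinesis genes, Ect2 (log2 -0.64) and Kif23 (-0.15), and the replication gene Rrm1 (-0.45), all with overlapping groups.

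The replication genes had smaller differences in G3 kidneys, and none was called. Tk1 had 43.6, 37.6, 49.0 and 31.3 in G3 folic acid, against 15.3, 18.6, 24.9 and 17.0 in G3 vehicle, without overlap (log2 1.06 ± 0.28, limma adjusted p = 0.089). Mcm3, a helicase subunit, had 49.9, 54.5, 23.0 and 46.5 in G3 folic acid, against 23.4, 14.7, 27 and 30.1 in G3 vehicle (log2 0.82 ± 0.32, limma adjusted p = 0.259). Again folic acid 3 alone fell within the vehicle range. Mcm7, another helicase subunit, had 287, 247, 316 and 307 in G3 folic acid, against 245, 193, 232 and 260 in G3 vehicle (log2 0.32 ± 0.17, adjusted p = 0.450). Uhrf1, which guides maintenance DNA methylation, had 10.9, 7.52, 3.00 and 13.4 in G3 folic acid, against 6.10, 1.95, 1.08 and 5.01 in G3 vehicle (log2 1.12 ± 0.61, adjusted p = 0.449). The helicase subunits Mcm2, Mcm4, Mcm5 and Mcm6 differed by 0.36 to 0.56 log2. Pcna, whose reads could be shared with the copies Pcna-ps1 and Pcna-ps2, differed by 0.12, and the chromatin remodeller Hells by 0.04.

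The number of members called in G3 depended on the fit. DESeq2 called 6 members higher (Cenpf, Mki67, Nusap1, Stmn1, Tk1 and Top2a), where it called 1.73% of all tested genes higher. With library weights 7 were called (2.88% of all), and without Tert+/+ folic acid 1, which only enters through the shared estimate of the spread, 5 were called (1.77%). Without the 2 libraries that hold both Xist and Y-linked RNA, 0 were called by limma and 14 had an unadjusted p under 0.05, as did 12.2% of all tested genes.

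Promoters are shown because mitotic and replication genes are known to carry different promoter elements. Cenpf, Top2a, Nusap1 and Tk1 are among the 5 members with the smallest p-values in G3. Mcm3 had the smallest p-value of the replication genes after Tk1, and the choice was made with these values known. Genes of G2 and mitosis are typically repressed outside these phases through the cell cycle genes homology region (CHR), often with upstream CCAAT boxes, and replication genes through E2F sites. The windows run from 250 bases before the RefSeq transcription start to 50 after it (GRCm38.p6), and capitals mark matches on either strand. The CHR was searched as TTTGAA, with TTCGAA allowed. The CCAAT box was searched by those letters. The E2F site was searched as TTCCCGC, with the variant TTCGCGC allowed, and with the further variants TTGCCGC, accepted here too, and TTGGCGC. Cenpf lies at chr1:189688037-189688336 and Top2a at chr11:99024140-99024439, both on the minus strand, and both have CHR and CCAAT matches.
Cenpf: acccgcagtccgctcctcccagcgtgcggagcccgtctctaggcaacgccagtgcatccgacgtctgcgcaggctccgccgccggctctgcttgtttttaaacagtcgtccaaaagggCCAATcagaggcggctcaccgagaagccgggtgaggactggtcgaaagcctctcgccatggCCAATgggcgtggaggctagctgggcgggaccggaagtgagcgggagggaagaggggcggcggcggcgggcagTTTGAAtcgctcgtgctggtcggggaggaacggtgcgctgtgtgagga
Top2a: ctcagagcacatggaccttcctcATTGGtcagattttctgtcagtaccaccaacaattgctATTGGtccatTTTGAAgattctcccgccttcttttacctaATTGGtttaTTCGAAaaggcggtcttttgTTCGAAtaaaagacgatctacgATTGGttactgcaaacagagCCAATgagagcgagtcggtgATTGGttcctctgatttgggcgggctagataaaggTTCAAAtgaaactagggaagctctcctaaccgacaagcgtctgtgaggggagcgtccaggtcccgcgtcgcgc
The replication gene Mcm3, at chr1:20820263-20820562 on the minus strand, has CCAAT and E2F matches, and 2 of its E2F matches overlap.
Mcm3: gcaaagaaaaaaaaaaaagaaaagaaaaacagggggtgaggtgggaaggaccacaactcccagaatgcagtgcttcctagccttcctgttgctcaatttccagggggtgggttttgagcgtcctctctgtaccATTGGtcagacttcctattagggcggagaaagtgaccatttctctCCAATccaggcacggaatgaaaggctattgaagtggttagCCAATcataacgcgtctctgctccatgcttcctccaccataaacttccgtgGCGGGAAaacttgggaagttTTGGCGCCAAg
Nusap1, at chr2:119618048-119618347 on the plus strand, and Tk1, at chr11:117825965-117826264 on the minus strand, have no match to any of the 3 motifs.
Nusap1: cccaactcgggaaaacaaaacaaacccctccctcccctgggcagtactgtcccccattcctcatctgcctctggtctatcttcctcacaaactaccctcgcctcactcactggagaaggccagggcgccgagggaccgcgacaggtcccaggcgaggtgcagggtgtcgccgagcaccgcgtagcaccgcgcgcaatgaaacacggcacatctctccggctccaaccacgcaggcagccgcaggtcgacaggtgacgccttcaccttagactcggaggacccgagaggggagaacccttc
Tk1: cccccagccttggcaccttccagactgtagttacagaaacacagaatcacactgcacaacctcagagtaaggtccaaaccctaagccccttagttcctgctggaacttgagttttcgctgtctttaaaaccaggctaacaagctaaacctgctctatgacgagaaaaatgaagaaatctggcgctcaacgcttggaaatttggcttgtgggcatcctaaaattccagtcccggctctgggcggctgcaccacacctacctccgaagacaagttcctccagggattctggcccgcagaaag

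Of the 43 genes, 36 matched a RefSeq promoter. For 24 of the 36, the bases just after the start were found near the beginning of a GENCODE transcript of the gene. A match or its absence depends on the start used. CHR was found in 20 of 25 G2 and mitosis genes (80.0%), in 2 of 11 replication genes (18.2%) and in 21.7% of all 27025 genes with a promoter. E2F was found in 4 of 25 (16%), 8 of 11 (72.7%) and 10.9% of all. CCAAT did not part the 2 gene groups, at 84.0% and 81.8% against 41.1% of all genes. A match describes letters in this window and is not a site.

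In Tert+/+ kidneys 3 cell cycle genes were called after folic acid, and all 3 were lower. 21 of 29 G2 and mitosis genes were positive, with a median log2 difference of 0.41, and 11 of 12 replication genes, with a median of 0.24, against 53.7% positive and a median of 0.04 over all genes. Over the 25 tested G2 and mitosis genes the median was 0.43, and it was 0.09 once the Y share was a term. Every Tert+/+ folic acid library had a Y share of at most 0.0340 and every Tert+/+ vehicle library one of 0.327 or more, so treatment and Y-linked RNA cannot be told apart within this genotype. Without Tert+/+ folic acid 1 the medians were 0.08 and 0.09, with 17 of 29 and 7 of 12 positive. Within the series of title numbers that holds all 3 folic acid and 3 vehicle libraries they were 0.45 and 0.26. Kif20b, Nusap1 and Tk1 were called lower, 3 of 36 members where 2.89% of all tested genes were, but limma called 0 once the Y share was added. In that fit 2 had an unadjusted p under 0.05, where 4.38% of all tested genes did. 4 members lay lower without overlap (those 3 and Cks2), where 10.6% of all genes did, and 5 lay higher without overlap (Uhrf1, Top2a, Smc2, Ube2c and Stmn1), where 9.31% did. 4 of the 36 were higher and 4 lower at an unadjusted p under 0.05, which is near the shares of all tested genes (11.4% and 11.7%). Kif20b alone was called when Tert+/+ folic acid 1 or 2 or Tert+/+ vehicle 1, 3 or 4 was left out, and Nusap1 was lost without Tert+/+ folic acid 3.

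Kif20b, a kinesin of the spindle midzone that acts in cytokinesis, had 78.3, 47.0 and 47.7 normalised counts in Tert+/+ folic acid, against 746, 178, 595 and 477 in Tert+/+ vehicle. It had 102, 67.6, 178 and 127 in G3 folic acid, against 43.7, 40.1, 85.5 and 57.1 in G3 vehicle. Tert+/+ vehicle stood apart from every other library except that its second library lay level with G3 folic acid 3. The log2 difference of folic acid was -2.95 ± 0.41 in Tert+/+ kidneys (limma adjusted p = 0.0049) and 1.03 ± 0.38 in G3 kidneys (adjusted p = 0.216). The 2 effects differed by 3.99 ± 0.56 (adjusted p = 0.0014). Between vehicle groups, G3 was lower than Tert+/+ by a log2 difference of -3.00 ± 0.38 (adjusted p = 0.00097). Kif20b followed the Y share in these libraries. It had 102 to 746 in the 7 libraries with a share of 0.3 or more, and 40.1 to 85.5 in the 8 libraries with a share under 0.05. With the Y share in the fit, Kif20b was called in none of the comparisons, and the term for the share itself was 1.75 log2 (adjusted p = 0.081).

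Nusap1, which bundles spindle microtubules around chromosomes, had 18.2, 14.4 and 16.2 in Tert+/+ folic acid, against 37.3, 42.7, 36.5 and 54.9 in Tert+/+ vehicle. It had 76.3, 26.3, 46.0 and 31.3 in G3 folic acid, against 18.3, 13.7, 16.2 and 24.1 in G3 vehicle. Neither pair overlapped, and the directions were opposite. Nusap1 fell in Tert+/+ (log2 -1.33 ± 0.31, limma adjusted p = 0.026), missed the threshold in G3 (1.18 ± 0.29, adjusted p = 0.074), and the effects differed by 2.51 ± 0.42 (adjusted p = 0.0045). Its counts also parted by Y share, at 31.3 to 76.3 in the 7 libraries with more and 13.7 to 26.3 in the 8 with less. In G3 folic acid 2, with hardly any Y-linked RNA, Nusap1 stood 0.55 log2 above the mean of G3 vehicle. Oip5 overlaps Nusap1 and Afmid overlaps Tk1 on the other strand, and the strand setting of the counting is named in the labels' protocol for the kit only.

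Tk1 had 13.6, 8.64 and 19.1 in Tert+/+ folic acid, against 37.3, 24.6, 22.1 and 42.0 in Tert+/+ vehicle. The groups did not overlap, and the log2 difference was -1.15 ± 0.30 (limma adjusted p = 0.037). With the opposite direction in G3, the effects differed by 2.21 ± 0.41 (adjusted p = 0.0068). Tk1 counts overlapped between libraries of high and low Y share, at 22.1 to 49.0 and 8.64 to 37.6. In G3 folic acid 2 Tk1 stood 0.97 log2 above the mean of G3 vehicle. Cks2, a small subunit that binds CDK1, had 31.8, 26.9 and 32.4 in Tert+/+ folic acid, against 49.8, 42.7, 66.2 and 92.9 in Tert+/+ vehicle (log2 -0.97 ± 0.31, adjusted p = 0.076).

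**Figure D5:**
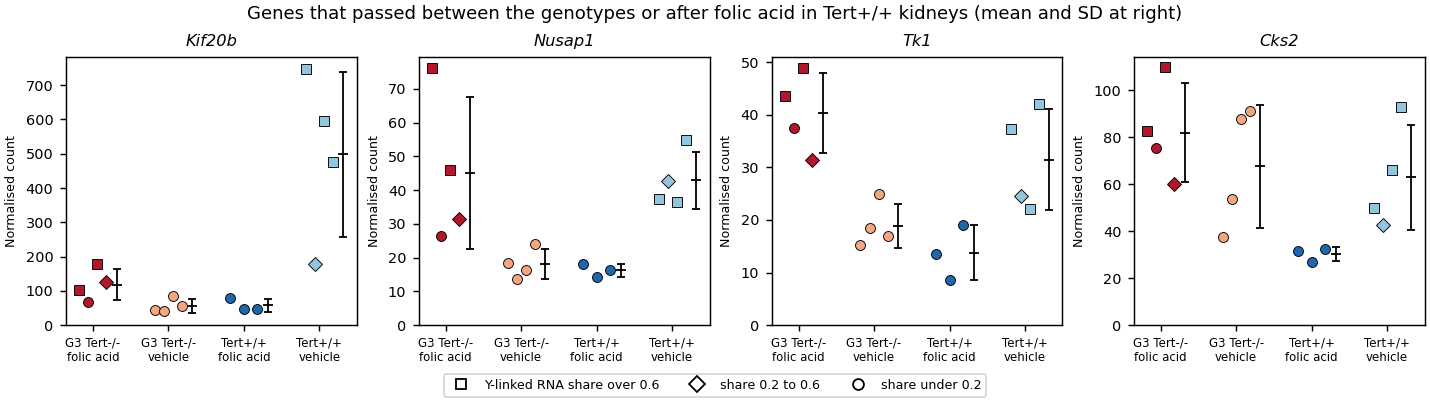
Normalised counts of Kif20b, Nusap1, Tk1 and Cks2 in every library, by group, with the mean and SD at the right of each group; squares mark a Y-linked RNA share over 0.6, diamonds 0.2 to 0.6 and circles under 0.2. For Kif20b and Nusap1 every square and diamond lies above every circle.

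The promoter windows of Kif20b and Cks2 are shown because both genes were called in at least 1 comparison. Each lacks 1 of the usual pair of mitotic elements, and 18 of 25 G2 and mitosis genes had matches to both. Kif20b, at chr19:34922108-34922407 on the plus strand, has 2 CHR matches just after the start and no CCAAT match.
Kif20b: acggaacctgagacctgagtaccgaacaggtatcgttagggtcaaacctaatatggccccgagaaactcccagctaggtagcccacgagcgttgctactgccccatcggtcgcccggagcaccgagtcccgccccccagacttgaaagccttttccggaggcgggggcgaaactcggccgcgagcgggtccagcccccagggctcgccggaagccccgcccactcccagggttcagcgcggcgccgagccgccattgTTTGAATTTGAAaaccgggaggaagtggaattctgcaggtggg
Cks2, at chr13:51644982-51645281 on the plus strand, has 4 CCAAT matches and no CHR match.
Cks2: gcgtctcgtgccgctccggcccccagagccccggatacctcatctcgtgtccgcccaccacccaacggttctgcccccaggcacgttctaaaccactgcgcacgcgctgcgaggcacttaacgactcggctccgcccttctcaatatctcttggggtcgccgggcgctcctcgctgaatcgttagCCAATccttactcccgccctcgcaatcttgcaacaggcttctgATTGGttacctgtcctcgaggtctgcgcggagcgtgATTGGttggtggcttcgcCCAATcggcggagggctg

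Uhrf1 and Ube2c were the members with the largest positive differences in Tert+/+ kidneys. Uhrf1 had 13.6, 3.84 and 2.86 in Tert+/+ folic acid, against 1.13, 1.90, 0.959 and 0 in vehicle (log2 1.80 ± 0.66, limma adjusted p = 0.116). These are counts of a few reads, led by folic acid 1. Ube2c, the ubiquitin-conjugating enzyme of the anaphase-promoting complex, had 55.6, 23.0 and 20.02 in folic acid, against 4.52, 18.96, 9.59 and 6.99 in vehicle (log2 1.64 ± 0.69, adjusted p = 0.166). In G3 the log2 difference of Ube2c was 0.01, and folic acid libraries ranged from 4.995 to 54.5 and vehicle libraries from 7.82 to 47.1.

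The genotypes were then compared after the same injection. After folic acid, 25 of 29 G2 and mitosis genes were higher in G3 than in Tert+/+ by sign, with a median log2 difference of 0.51, and 8 of 12 replication genes, with a median of 0.22. Over all 19602 genes 50.4% were above 0, with a median of 0.004. Without Tert+/+ folic acid 1 the medians were 1.0 and 0.39, and without G3 folic acid 3 they were 0.83 and 0.37. 3 of 36 members were called higher in G3 (Tk1, Cks2 and Nusap1), where 0.717% of all tested genes were. All G3 folic acid libraries are in title series 27 and all Tert+/+ folic acid libraries in series 26, so genotype and title series cannot be told apart in this comparison. With a term for the series, which rests on the vehicle libraries, limma called 0 members. In that fit 0 had an unadjusted p under 0.05, where 4.25% of all tested genes did. The same 3 were the members higher without overlap, where 7.84% of all genes were. Tk1 differed by 1.53 ± 0.30 log2 (limma adjusted p = 0.020), with 31.3 to 49.0 in G3 and 8.64 to 19.1 in Tert+/+. Cks2 had 82.6, 75.2, 110 and 59.9 in G3 folic acid, against 31.8, 26.9 and 32.4 in Tert+/+ folic acid, a difference of 1.37 ± 0.31 (adjusted p = 0.030). Nusap1 differed by 1.30 ± 0.31 (adjusted p = 0.039). In G3 folic acid 2, whose Y share is like that of the Tert+/+ folic acid libraries, Tk1, Cks2 and Nusap1 stood 1.45, 1.29 and 0.67 log2 above the Tert+/+ folic acid mean. Leaving out G3 folic acid 1, G3 folic acid 3 or Tert+/+ folic acid 2 left 0 of the 3 called by limma, with 4, 8 and 3 members at an unadjusted p under 0.05 (14.6%, 18.3% and 15.5% of all tested genes). Without Tert+/+ folic acid 3 only Tk1 was called, and without Tert+/+ vehicle 1 Nusap1 was not.

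Plk1, the mitotic kinase next in order, had 19.1, 20.7, 3.996 and 16.1 in G3 folic acid, against 4.54, 1.92 and 7.63 in Tert+/+ folic acid (log2 1.42 ± 0.58, limma adjusted p = 0.181). 3 of 4 G3 libraries were above the Tert+/+ range.

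After vehicle, 9 of 29 G2 and mitosis genes and 6 of 12 replication genes were above 0 in G3 against Tert+/+, with median log2 differences of -0.16 and 0.08. Over all 19602 genes 54.2% were above 0, with a median of 0.04. Kif20b and Nusap1 were called lower in G3, 2 of 36 members where 2.03% of all tested genes were, and they were the 2 without overlap, where 6.72% of all genes lay lower. Nusap1 differed by -1.21 ± 0.29 (limma adjusted p = 0.032), and lost the call without G3 vehicle 2 or 3 or Tert+/+ vehicle 1, 3 or 4. Kif11 was lower by -1.06 ± 0.42 log2 and Ube2c higher by 1.26 ± 0.64, neither past the threshold (adjusted p of 0.187 and 0.318). Here all G3 libraries had a Y share under 0.05 and all Tert+/+ libraries one of 0.327 or more, so genotype and Y-linked RNA cannot be told apart in this comparison.

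The difference of the 2 folic acid effects was called for Kif20b, Nusap1 and Tk1, 3 of 36 members where 2.16% of all tested genes had a higher effect in G3. It was above 0 for 26 of 29 G2 and mitosis genes, with a median of 0.70 log2, and for 6 of 12 replication genes, with a median of 0.03. Over all 19602 genes 47.2% were above 0, with a median of -0.03. Cks2, Cenpf and Plk1 came next, at 1.30 ± 0.42, 0.98 ± 0.41 and 1.81 ± 0.79 log2 (limma adjusted p of 0.102, 0.228 and 0.250). When the Y share was added to the fit, 0 members were called by limma in this comparison, in folic acid against vehicle in Tert+/+, and between the genotypes after either injection, with 4, 2, 5 and 2 members at an unadjusted p under 0.05, as had 407, 641, 1536 and 849 of the 14651 tested genes. edgeR with the same term also called 0 in each of them. With a term for the title series instead, limma called 0 members for the difference of the effects. In that fit 3 of 36 had an unadjusted p under 0.05, where 8.30% of all tested genes did, and the closing section gives how the medians moved.

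Other genes of the pathway were counted from lists that hold no member. Of 45 further mitosis genes with a row, 41 were above 0 after folic acid in G3, with a median log2 difference of 0.68 without a filter on low values, against 49.0% and -0.01 over all genes. 25 of them were tested, 7 of which entered only through folic acid libraries, among them Kif15 and Ttk. 0 were called by limma, edgeR or DESeq2 there. 9 had an unadjusted limma p under 0.05, all higher, and 4 of the 9 entered only through folic acid libraries. The 3 of smallest p were the kinesin Kif15 (12.8 ± 3.2 in G3 folic acid and 3.60 ± 1.47 in G3 vehicle, SD, n = 4 each), the passenger protein Incenp (52.5 ± 13.1 and 28.7 ± 6.2) and the checkpoint kinase Ttk (13.6 ± 7.9 and 3.05 ± 1.39), with limma adjusted p of 0.096, 0.119 and 0.146. For the difference of the effects, 26 of the 45 further mitosis genes were above 0, with a median of 0.10. This median was 0.70 for the 29 members and -0.03 over all genes. Between the genotypes 34 of the 45 were above 0 after folic acid (median 0.40) and 24 after vehicle (median 0.05). Over all genes 50.4% and 54.2% were above 0 in these comparisons. Of 36 further replication genes with a row, 26 were above 0 in G3, with a median of 0.17, and of the 26 tested 0 were called by limma (DESeq2 called 1). Mcm10, which loads the polymerase, had the smallest p there (log2 1.41 ± 0.38, limma adjusted p = 0.096) and was called for the difference of the effects (2.27 ± 0.57, adjusted p = 0.033). That is 1 call in 26, where 2.16% of all tested genes were called higher.

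Of 14 tested genes of G1 entry, E2f3, a transcription factor that activates replication genes, was called in 3 comparisons. It averaged 36.0 ± 6.2 in Tert+/+ folic acid and 59.5 ± 6.0 in Tert+/+ vehicle (SD, n = 3 and 4; limma adjusted p = 0.044). It averaged 34.0 ± 5.4 in G3 vehicle (SD, n = 4), lower than in Tert+/+ vehicle (adjusted p = 0.026), and its folic acid effects differed by 1.37 ± 0.27 log2 (adjusted p = 0.0090). Each is 1 call in 14 genes, where 2.89%, 2.03% and 2.16% of all tested genes were called in the same direction. Of 16 tested cell cycle brakes, Cdkn1c, an inhibitor of CDKs, averaged 291 ± 107 in Tert+/+ folic acid and 160 ± 11 in Tert+/+ vehicle (SD, n = 3 and 4; limma adjusted p = 0.038). Ccng2, an atypical cyclin linked to arrest, averaged 26.1 ± 10.4 in G3 folic acid and 7.55 ± 2.35 in Tert+/+ folic acid (SD, n = 4 and 3; adjusted p = 0.049). The difference of the effects was called for 2 brakes in opposite directions, at 0.92 ± 0.25 log2 for Ccng1, a p53 target (adjusted p = 0.048), and at -1.10 ± 0.29 for Cdkn1c (adjusted p = 0.041). Ccng2 and Ccng1 were each 1 call in 16, where 0.717% and 2.16% of all tested genes were called in the same direction. Shares over all genes for the directions of Cdkn1c were not counted. Once the Y share was added as a term, none of these calls on the 4 lists remained.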

How the data were processed

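Kidney RNA of 15 mice in 4 groups was read with the QuantSeq 3' kit, which keeps the strand, from RNA of quality score 4.7 to 8.0 (average 6.3), per the labels' protocols. The submitters' processing notes name GRCm38 as the build and FastQC 0.11.7, Bowtie 1.0.0, TopHat2 2.0.10, SAMtools 0.1.19, HTSeq 0.6.1 and DESeq2 as tools, with no roles. The deposited values are a signal, the reads of a gene divided by a size factor that is constant within a library, as the values themselves show. Every value was a whole multiple of 1 step per library within 0.001 reads (100% of values), which gave the whole reads used as depth and in the count tests.

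Groups followed the labelled treatment. Differences were fitted with limma 3.58.1 in R 4.3.3 on log2(normalised count + 1) with a mean-variance trend and a term per group over all 15 libraries, for 14651 genes with at least 10 in at least 3 libraries, in 5 comparisons that share groups. The labelled sex was left out because Xist and Y-linked RNA went against it. p-values were adjusted over all tested genes and measure only the spread between these libraries, which the labels describe as mice without further detail. Alternatives were the labelled sex or the Y share as a term, other filters, pseudocounts of 0.5 and 5, TMM scaling, edgeR 4.0.16 and DESeq2 1.42.0 on whole reads, library weights, the compared groups only, a term for the 3 series into which the title numbers fall, and leaving out libraries. Fits that join the Y share with edgeR or with left-out libraries were added after the values were seen. The procedure was tested on simulated data. The members, gene lists and tests were chosen with earlier results of these data known. Values in every library are given for members called in any comparison, for the 8 mitosis and 4 replication members of smallest p after folic acid in G3, and for up to 3 more per comparison. Ube2c in Tert+/+ and Smc2, Smc4 and other members given by their difference alone were named after their values were seen. Promoters came from RefSeq (GRCm38.p6) and gene positions from GENCODE M21. Lists for other cell types covered T, B, plasma, erythroid, proximal tubule, fibroblast and endothelial cells; the closing section gives those not described above.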

Additional observations from a re-analysis of the deposited data

Results flagged for a closer look

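3 values lay far from the rest of their group of 4, by a criterion that chance alone meets in about 1 group in 20. 54 groups were checked, in which chance alone would give about 2.7 such values. Mki67 had 54.0 normalised counts in Tert+/+ vehicle 2, against 24.9 to 29 in the other 3 vehicle libraries. The mean log2 level of the 29 G2 and mitosis genes was 3.84 in the same library, against 4.04 to 4.08 in the others, so Mki67 and the group as a whole lay at opposite ends there. This library held both Xist and Y-linked RNA. The mean level of the 12 replication genes was 4.60 in G3 folic acid 3, against 5.17 to 5.28 in the other 3.

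The folic acid effect differed between the genotypes, by the test of the difference itself, for Kif20b (3.99 log2), Nusap1 (2.51) and Tk1 (2.21). The limma adjusted p was 0.0014, 0.0045 and 0.0068. All 4 G3 folic acid libraries and all 3 Tert+/+ folic acid libraries moved in opposite directions from the mean of their own vehicle group for each of the 3 genes. The part of Y-linked RNA, which differs in the same libraries, was not tested beyond the fits with the Y share, in which none of the 3 was called.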

How the results depend on the processing

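No paired analysis was possible because replicate numbers follow accession order. Called members in G3 folic acid against vehicle numbered 1, and 0 to 5 with 1 library left out, 6 by DESeq2, 7 with library weights, 3 with the compared groups only, 2 with the Y share without Tert+/+ folic acid 1, and 0 without the 2 libraries holding both Xist and Y-linked RNA, with or without the Y share, and 0 with title series. In Tert+/+ they numbered 3, and 1 to 4 with 1 library left out and 1 with the labelled sex. Between genotypes after folic acid they numbered 3, and 0 to 3 with 1 library left out, 1 with the compared groups only and 7 with library weights. After vehicle they numbered 2, and 1 to 2 with 1 library left out and 1 with the labelled sex. The difference of the effects had 3, and 5 with library weights. For most of these fits the share of all tested genes called was not counted. With library weights more of all tested genes also had an unadjusted p under 0.05. Between genotypes after folic acid 34.5% did, against 20.4% without weights. For the difference of the effects 25.0% did, against 16.8% without weights. In the 4 comparisons other than folic acid in G3, every limma or edgeR fit with the Y share, and limma with title series, called 0. At an unadjusted p under 0.05, limma with title series had 3 of 36 members in G3 and 5 in Tert+/+. Of the 14651 tested genes, 615 in G3 and 2479 in Tert+/+ passed that threshold in the same fit. The share of members was thus below that of all tested genes in Tert+/+ and above it in G3.

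Median log2 differences over the tested members moved as follows. For mitosis genes between genotypes after vehicle, the median was -0.16, against -0.50 with the Y share, -0.51 and -0.95 with it but without Tert+/+ folic acid 1 and without those 2 libraries, and 0.21 with title series. Their difference of effects was 0.66, against 1.19, 1.36, 1.64 and 0.032 under the same 4. With title series their median in G3 was 0.52 in place of 1.03. In Tert+/+ it was 0.43, against 0.09 with the Y share, and -0.25 and -0.47 with it but without Tert+/+ folic acid 1 and without those 2 libraries. For replication genes between genotypes after vehicle the median was 0.24, against -0.21 with the Y share, -0.11, -0.21 and -0.16 with it but without G3 folic acid 3, Tert+/+ folic acid 1 or those 2 libraries, -0.14 with it by edgeR, -0.17 with a mean of at least 20, and 0.0046 with title series. Their difference of effects was -0.01, against 0.51, 0.35, 1.02, 0.43 and 0.32 in the 5 Y share fits, in the same order. In Tert+/+ their median was 0.26, against -0.010 and -0.15 with the Y share without Tert+/+ folic acid 1 and without those 2 libraries.

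Sign changes of single genes were counted only for members called in a comparison or chosen there by smallest p. Among these there were 5, all with the Y share. Members outside this choice were not counted, and the shifts of the medians above include sign changes among them. Between genotypes after vehicle, Ube2c was -0.56, and -0.58 and -0.76 without Tert+/+ folic acid 1 and without those 2 libraries. Without those 2 libraries Nusap1 was 0.30 in that comparison and 0.15 for folic acid in Tert+/+. The cause was not tested. With title series, G3 effects rest on 1 vehicle library that shares its series with folic acid libraries. Depth limits the low members: 1 read was worth about 1 normalised count, and Kif11, Birc5, Plk1 and Uhrf1 rest on few reads.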

Other observations

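Marker sums for cells other than macrophages and injured tubule also differed between some groups, as normalised counts over fixed lists. 12 fibroblast and pericyte markers had 3385 to 6072 in G3 folic acid and 1660 to 2814 in G3 vehicle, and 2419 to 11228 in Tert+/+ folic acid and 1698 to 2263 in Tert+/+ vehicle. The folic acid ranges lay above the vehicle ranges in both genotypes, and the highest sum was that of Tert+/+ folic acid 1. That library also led for B and plasma cell markers, at 12508 against 657 and 680 in the other 2 Tert+/+ folic acid libraries. G3 folic acid 3 had the fewest of these markers of its group, at 85 against 641 to 2681. T and NK cell markers summed to 98 to 308 in G3 folic acid and 84 to 155 in G3 vehicle, and to 135 to 372 in Tert+/+ folic acid and 94 to 120 in Tert+/+ vehicle. Proximal tubule markers ranged from 94352 to 241166 in G3 folic acid and from 112451 to 135164 in G3 vehicle, with the highest sum in G3 folic acid 3. They ranged from 142008 to 173842 in Tert+/+ folic acid and from 200283 to 290243 in Tert+/+ vehicle, without overlap. The single proximal tubule genes were split. After folic acid 6 were above 0 and 8 below in Tert+/+, and 5 were above and 9 below in G3, so these sums do not stand for all 14. Endothelial markers summed to 2879 to 3242 in G3 folic acid and 3142 to 3704 in G3 vehicle. They summed to 3478 to 3744 in Tert+/+ folic acid and 2863 to 3264 in Tert+/+ vehicle. The Tert+/+ folic acid range lay above those of Tert+/+ vehicle and of G3 folic acid, without overlap. The part of all these cells in the cell cycle results was not tested.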
